A study of Mus musculus with 2 samples.

Results

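The genes described here are 6 long non-coding RNA (lncRNA) genes of the mouse, Malat1, Neat1, Meg3, Rian, Kcnq1ot1 and H19. They were chosen by name, with earlier results of these data known. Their m6A peaks are those of the deposited list with the summit in the span of the gene. Spans shared with another gene count as well. Of 26584 peaks, 16 met this rule, and they fell in 5 of the 6 genes. The study mapped N6-methyladenosine (m6A), a methyl mark on adenosines inside RNA, in the uterus of wild-type mice on gestational day 4. Females aged 6 to 8 weeks were mated with fertile males, and the day of the vaginal plug counted as day 1. PolyA RNA was sequenced after immunoprecipitation (IP) with an anti-m6A antibody and, as input, without antibody. There was 1 sample of each, both labelled as mixed cells, and the labels do not give the number of animals behind them.

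A long non-coding RNA acts as RNA and is not translated into protein. Malat1 and Neat1 lie next to each other and stay in the nucleus: Malat1 gathers in nuclear speckles, which store splicing factors, and Neat1 is the scaffold of paraspeckles, bodies that hold RNA-binding proteins. The other 4 genes are imprinted, so that the copy from 1 parent is the active one. Meg3 and Rian come from the maternal chromosome in the Dlk1-Dio3 region, H19 from the maternal chromosome beside Igf2, and Kcnq1ot1 from the paternal chromosome, where it silences neighbouring genes. In these RNAs m6A is added in the nucleus by the same writer complex that marks mRNA.

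Each peak carried the peak caller's own fold enrichment, which is the ratio of the IP pileup at the summit plus 1 to the background there plus 1. The pileup is the number of IP fragments over the summit, and the background is expressed in IP fragments. Parentheses give 95% intervals, exact Poisson bounds of the pileup, with the background taken as known. They cover counting error only, since there is no replicate and amplified fragments are not independent molecules. With 1 library no p-value across animals can be given, and in whole tissue fewer cells of a type and less RNA per cell cannot be told apart.

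All 26584 peak names carry the run name D8NegIP-Posinput, whereas the sample is labelled day 4, and the labels' grouping was used. Neither the day in that name nor its words Neg, before IP, and Pos, before input, are explained in the sources used here. If the IP was set against the input of another sample, each background and fold enrichment compares those samples. The list does not settle if its background comes from the input sample. Over the whole list the median fold enrichment was 7.14 (quartiles 5.52 and 10.1), the median pileup 18 fragments and the median background 1.42. Beside 44.9% of protein-coding genes with a peak, shared spans counted, peaks were present in all 10 genes listed as uterine markers and in 3 of 9 listed as markers of other tissues or cells (Alb, Apoa1 and Ovgp1). Of those 3, Apoa1 reached a fold enrichment of 25.2 (17.3 to 35.6) over a background of 0.231, Alb 8.67 and Ovgp1 7.91. Alb and Apoa1 are the listed liver genes. A peak shows enrichment by the antibody and gives no expression level.

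Across the 16 peaks, the fold enrichment had a median of 5.11 (quartiles 3.96 and 6.77) and ran from 2.41 to 11.4. The 1731 other peaks in lncRNA genes had a median of 6.50. Of the 16 peaks, 12 lay below the median of all peaks in fold enrichment and 13 lay above the median of all peaks in background. A fold enrichment of at least 10 was reached by 2 of them (12.5%), in Neat1 and Kcnq1ot1, against 25.7% of all peaks. The 5 genes with a peak stand against 8.62% of 12731 lncRNA genes when shared spans are counted, and against 9.46% of the lncRNA genes at least as long as H19, the shortest of the 6. Counting only summits in the span of that gene alone, 4 of the 6 genes stand against 3.78% of lncRNA genes. Among protein-coding genes the share, with shared spans, was 44.9%. None of these shares was matched for expression, and the 6 genes were chosen with earlier results of these data known. Only 1 of the 16 peaks, in Meg3, rested on fewer than 10 IP fragments, against 20.9% of all peaks.

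**Figure D1:**
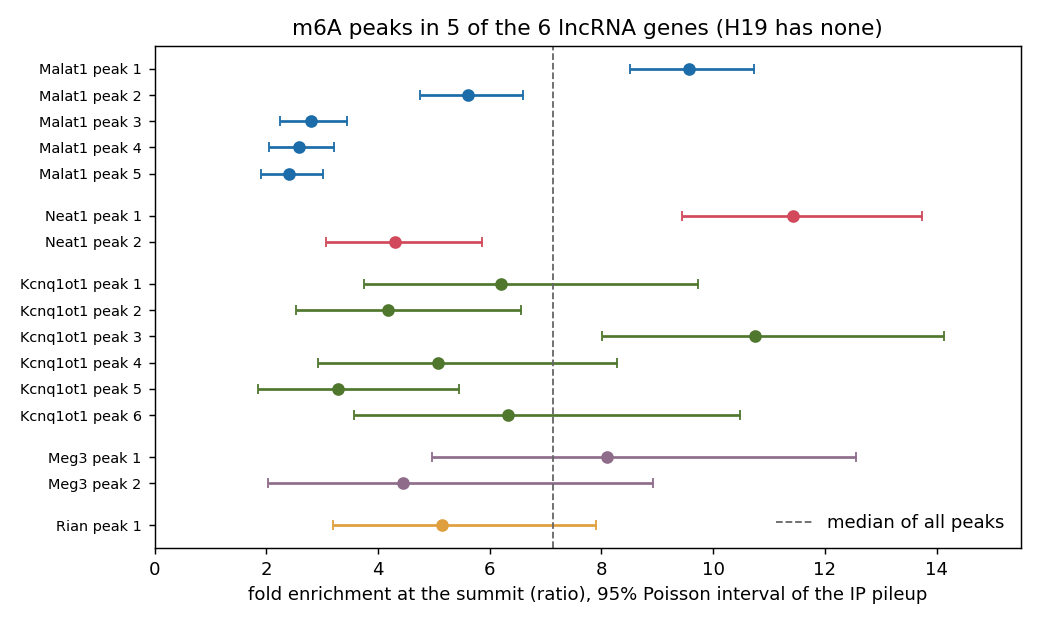
Fold enrichment at the summit (horizontal axis, a ratio) of each of the 16 peaks, with peaks numbered from the 5′ end of the gene (for Neat1 from the high-coordinate end), points for the deposited values and bars for the 95% Poisson interval of the IP pileup. The dashed line is the median of all 26584 peaks, 7.14; the top peaks of Neat1, Kcnq1ot1, Malat1 and Meg3 lie to its right, and the other 12 peaks to its left.

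Malat1, whose RNA is among the most abundant in nuclei, carried peaks over most of its length, and their enrichment was highest near its 5′ end. The gene lies on the minus strand of chromosome 19, 5795690 to 5802672 (GRCm38, the assembly of mm10). Its 5 peaks covered 5531 of its 6983 bp (79.2%), rank 4 by covered share among the 1098 lncRNA genes with a peak, whose median was 3.29%. No other gene of the table shares their summits. A span includes any introns, so covered shares of different genes are not shares of their RNAs.

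The peak at the 5′ end of Malat1, 5799682 to 5802783, was 3102 bp wide and had 289 IP fragments over a background of 29.3, a fold enrichment of 9.57 (8.50 to 10.7). By pileup it was second in the whole list, and by −log10 q, at 170.8, it was 12th. The second peak, 5797901 to 5799497, had 145 fragments over 25.0 and a fold enrichment of 5.62 (4.75 to 6.60). Its interval overlaps neither that of the peak before it nor those of the peaks after it.

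The 3 remaining peaks of Malat1, with summits 5461, 5839 and 6387 bp from the 5′ end, had 2.80 (2.25 to 3.44), 2.58 (2.05 to 3.21) and 2.41 (1.91 to 3.01). Their pileups were 89, 79 and 76 fragments, and their intervals overlap each other. The fall along the gene was in the pileup, since the backgrounds of the 5 peaks stayed between 25.0 and 31.1. These 3 were among the lowest fold enrichments of the list, at which no more than 0.248% of all peaks stood lower. The gaps between neighbouring peaks of Malat1 measured 155 to 354 bp, so the calls form a nearly continuous block. The gene of the small tRNA-like RNA cut from the 3′ end of Malat1, Mascrna, at 5795924 to 5795981, lay 226 bp beyond the last peak and was not covered.

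**Figure D2:**
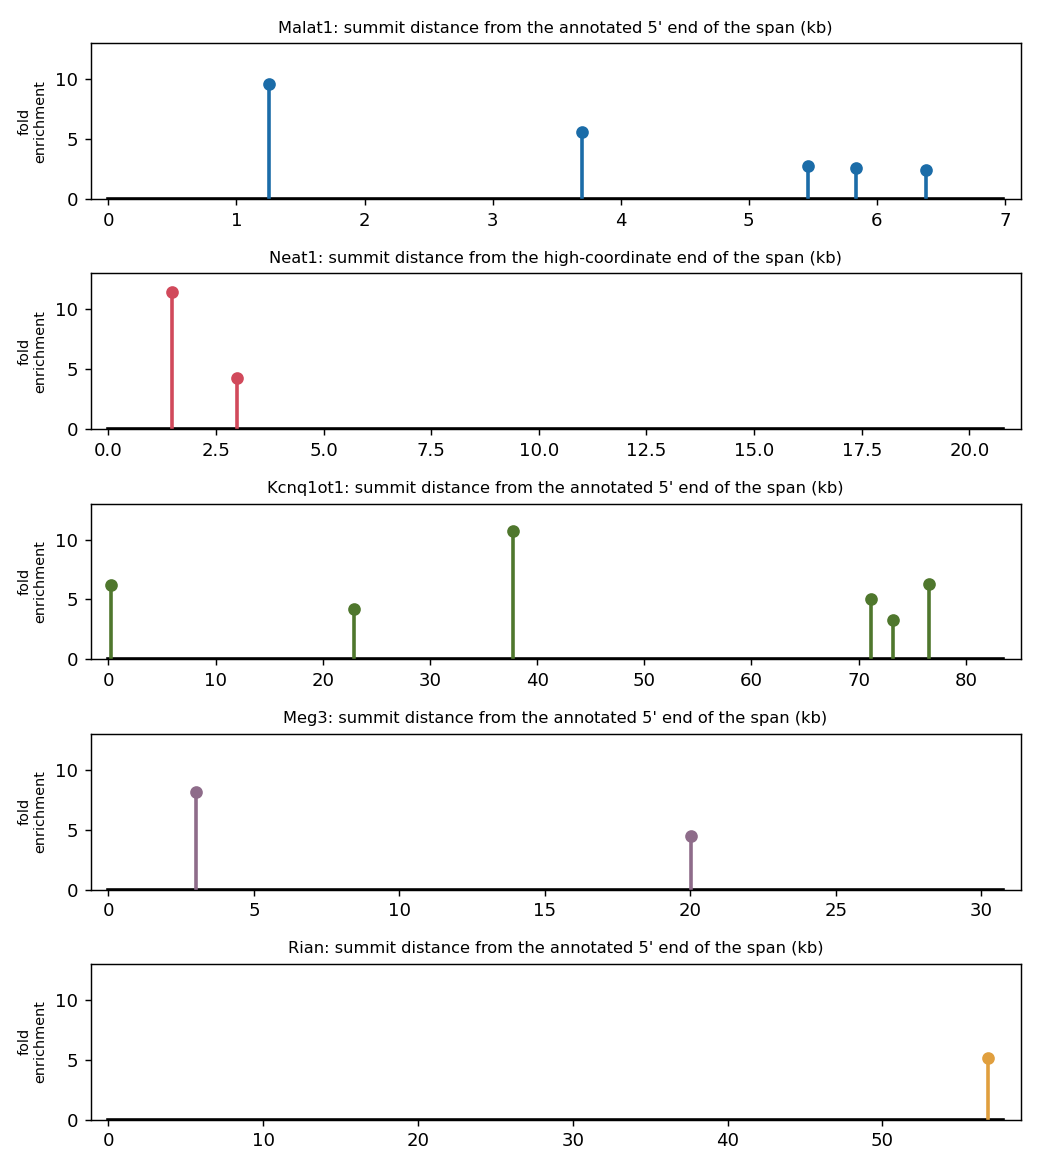
Position of each summit along the span of its gene (horizontal axis, kb from the annotated 5′ end, for Neat1 from the high-coordinate end) and its fold enrichment (vertical axis, a ratio), 1 panel a gene. In Malat1 the values step down from 9.57 to 2.41, in Neat1 both peaks lie at 1 end, in Kcnq1ot1 the 6 peaks are spread over the span, and in Rian the single peak lies near the 3′ end.

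The first Malat1 peak ran 111 bp past the annotated start of the gene. The sequence around that start is shown because a peak reaches it. RefSeq's table for GRCm38.p6 gives windows of 250 bases before and 50 after the start for Malat1, Kcnq1ot1, Meg3 and Rian, 5 windows in all, and of these 5 a peak overlaps that of Malat1 alone. In the Malat1 window, chr19:5802623-5802922 on the minus strand, capitals mark the 161 bases that the peak covers, of which the last 50 are transcribed. The Kcnq1ot1 window, chr7:143296498-143296797 on the minus strand, is given beside it because the nearest peak ends 90 bp short of it. There capitals mark the 50 transcribed bases, none of them covered.
Malat1: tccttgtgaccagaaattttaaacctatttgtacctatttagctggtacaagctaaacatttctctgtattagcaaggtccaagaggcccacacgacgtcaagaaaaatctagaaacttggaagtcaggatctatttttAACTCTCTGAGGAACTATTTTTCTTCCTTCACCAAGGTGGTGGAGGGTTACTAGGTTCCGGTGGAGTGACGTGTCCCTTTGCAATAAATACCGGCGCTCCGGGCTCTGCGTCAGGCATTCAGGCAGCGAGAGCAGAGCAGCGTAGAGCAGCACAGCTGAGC
Kcnq1ot1: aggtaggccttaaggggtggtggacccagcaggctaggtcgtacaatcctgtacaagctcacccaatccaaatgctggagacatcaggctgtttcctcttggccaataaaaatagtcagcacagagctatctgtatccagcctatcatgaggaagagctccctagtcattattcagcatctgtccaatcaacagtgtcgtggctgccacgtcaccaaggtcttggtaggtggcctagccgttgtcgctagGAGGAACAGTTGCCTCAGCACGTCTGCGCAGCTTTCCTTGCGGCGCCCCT
A peak overlapped 5.38% of all 32851 windows of the table and 2.74% of those of lncRNA genes. Motifs were searched on both strands. The motif GGAC, the core of many m6A sites, is found in 87.7% of all windows, and the longer GGACT, which holds it, in 45.5%. The related GAACT is found in 43.5% and the form AGACT in 45.9%. In the covered part of the Malat1 window, on the strand of the gene, GAACT occurred 1 time, before the start, and the other motifs did not occur. The 50 transcribed bases of both windows held none of the 4 motifs on that strand.

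The background under Malat1 was among the highest in the list. Only 30 of 26584 peaks (0.113%) had a background of at least 25.0, and 5 of them were its peaks. Of the other 25, 11 lay on the mitochondrial genome. Some lay in genes of abundant RNAs, such as the elongation factor gene Eef1a1 and the small nuclear RNA gene Rn7sk. Several more lay in the span of no gene, so the 25 are a mixed set. Fold enrichments of those 25 ran from 1.76 to 6.44 with a median of 3.81. The first Malat1 peak, at 9.57, stood above all 25. The second stood above all but the peak of the thymosin gene Tmsb4x, and the last 3 below the median of the 25. Among lncRNA genes with a peak, Malat1 ranked first by the background and by the pileup of its top peak, and 318th of 1098 by its fold enrichment.

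**Figure D3:**
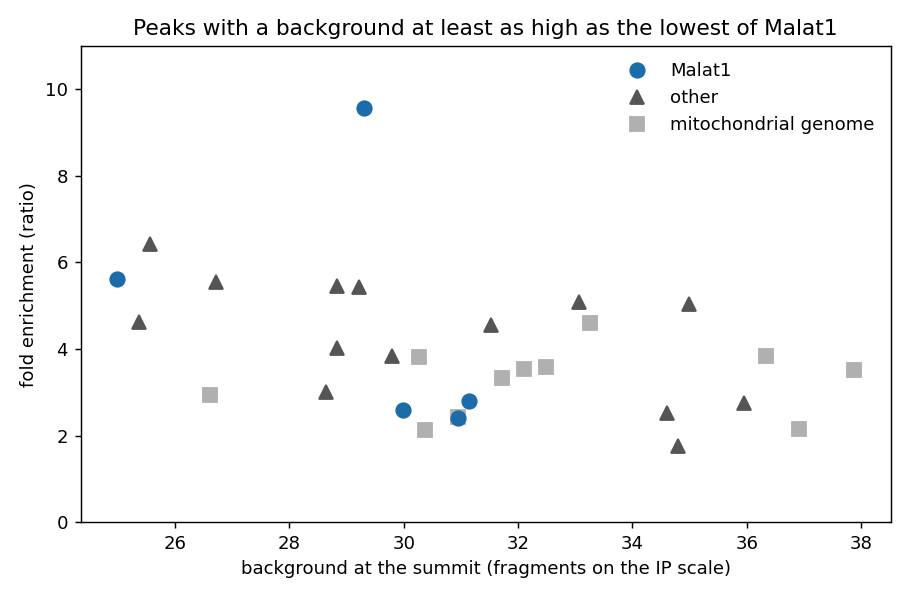
Fold enrichment (vertical axis, a ratio) against background at the summit (horizontal axis, IP-scaled fragments) for the 30 peaks whose background was at least that of the lowest Malat1 peak. Circles are the 5 Malat1 peaks, squares the 11 of the mitochondrial genome and triangles the rest; the first Malat1 peak, at 9.57, is the highest of the 30.

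Neat1, the paraspeckle scaffold, had the highest fold enrichment of the 6 genes, at 1 end of its span. The gene occupies chromosome 19, 5824708 to 5845480, 20773 bp. As background, it is transcribed in the same direction as Malat1, so its high-coordinate end is its 5′ end, and a short and a long form share that end. The ends of these forms are not in the table used here.

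The broad first Neat1 peak, 5842890 to 5845561, had 112 IP fragments over a background of 8.88 and a fold enrichment of 11.4 (9.43 to 13.7). It was 2672 bp wide, with its summit 1482 bp from the high-coordinate end, and it ran 81 bp past that end. A narrow second peak, 5842422 to 5842633, followed after a gap of 256 bp, with 38 fragments over 8.07 and 4.30 (3.07 to 5.86). The intervals do not overlap. The step down away from this end has the same direction as in Malat1, again over a nearly level background.

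No summit lay in the remaining part of the Neat1 span, from its low-coordinate end up to 17784 bp. How deeply that part was sequenced is not in the data used here. Between Malat1 and Neat1, over 22035 bp, there was no summit either. Among 614 peaks of the list outside these genes with a background up to 25% above or 20% below that of the first Neat1 peak, 87.9% had a lower fold enrichment. For the second, 22.1% of 784 such peaks did. The same comparison gave 100% for the first Malat1 peak and 12% for its last. It gave 73.8% for the strongest Kcnq1ot1 peak and 1.58% to 31.3% for the others of that gene. For Meg3 it gave 54.7% and 2.60%, and for Rian 18.7%.

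**Figure D4:**
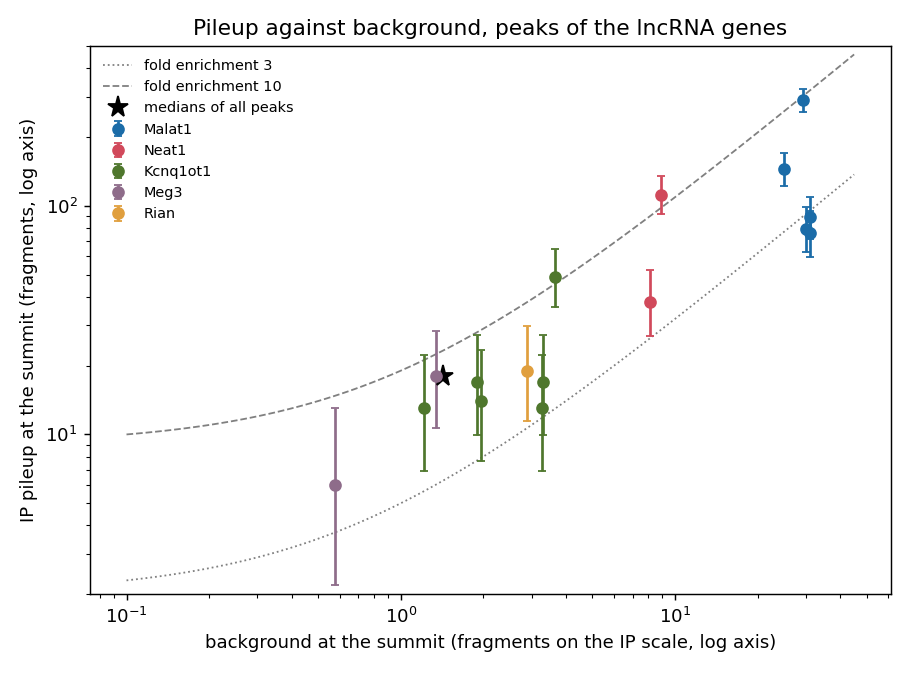
IP pileup at the summit (vertical axis, fragments, log scale, bars for 95% Poisson intervals) against background (horizontal axis, fragments on the IP scale, log scale) for the 16 peaks, coloured by gene, with the medians of all peaks as a star. Lines join points of fold enrichment 3 and 10; Malat1 and Neat1 lie at backgrounds of 8.07 and above, the other 3 genes at 3.65 and below.

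Kcnq1ot1, the paternally expressed RNA of the Kcnq1 imprinted region, had the most peaks of the 6 genes, and all of them lay in a span shared with a protein-coding gene. It lies on the minus strand of chromosome 7, 143213111 to 143296547, 83437 bp, inside the span of Kcnq1, which encodes a potassium channel subunit. As background, it is antisense to Kcnq1. Although the library kit was directional, the peak list holds no strand, and the 6 peaks cannot be assigned to either RNA from the list itself. All 6 peaks of the Kcnq1 span lay within Kcnq1ot1, which makes up 26.1% of it, and 0 lay in the other 236737 bp.

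The strongest Kcnq1ot1 peak, 143258113 to 143259275, lay 37787 bp from the 5′ end, with 49 IP fragments over a background of 3.65 and a fold enrichment of 10.7 (8.01 to 14.1). Nearest to the start, a peak at 143295720 to 143296408 had its summit 249 bp from the 5′ end, 17 fragments and 6.20 (3.76 to 9.72). Between these, 143273525 to 143273724 had 17 fragments and 4.19 (2.54 to 6.56). The strongest interval does not overlap this last one but does overlap that of the peak at the start.

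Toward the 3′ end, 3 peaks clustered with summits 71148, 73197 and 76588 bp from the start. They had 5.07 (2.92 to 8.27) from 14 fragments at 143225342 to 143225572, 3.28 (1.86 to 5.44) from 13 at 143223180 to 143223450, and 6.32 (3.58 to 10.5) from 13 at 143219769 to 143220157. Their intervals overlap one another and do not separate these peaks, and the differences themselves were not tested. The backgrounds of the 6 peaks lay between 1.21 and 3.65. Together the peaks covered 3.53% of the span, and their density, 0.0719 per kb, was close to the medians of lncRNA genes with a peak (0.0942) and of protein-coding genes with a peak (0.0696). In Malat1 it was 0.716 per kb. These densities are per span, any introns included, and not per length of RNA.

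Meg3, a maternally expressed RNA of the Dlk1-Dio3 region that has been tied to growth suppression, had 2 peaks from few fragments. The gene lies on the plus strand of chromosome 12, 109540996 to 109571729. Its first peak, 109543865 to 109544070, had 18 IP fragments over a background of 1.35 and a fold enrichment of 8.10 (4.97 to 12.6), 3011 bp from the 5′ end. A second at 109560933 to 109561216 had 6 fragments over 0.577 and 4.44 (2.03 to 8.92). The intervals overlap and do not separate the 2 peaks, and the difference itself was not tested. Both backgrounds lay below the median of all peaks. A further summit lay just outside the span, 1675 bp past its 3′ end and in the span of Rtl1, with 8.13 (4.28 to 14.3) from 10 fragments.

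Rian, downstream of Meg3, carries small nucleolar RNAs and miRNAs in its span, and had a single peak at the far end. It lies on the plus strand of chromosome 12, 109603945 to 109661716, 57772 bp. The peak, 109660605 to 109660949, had 19 IP fragments over a background of 2.88 and a fold enrichment of 5.15 (3.20 to 7.90), with its summit 964 bp from the 3′ end. That is below the median of all peaks, which lies inside its interval. Peaks covered 0.597% of the Rian span and 1.59% of that of Meg3.

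H19, a short and in fetal tissue very abundant imprinted RNA, had no peak. It spans chromosome 7, 142575530 to 142578146, and from its start to the far end of Igf2, over 91287 bp, there was no summit. The nearest summit lay 64207 bp away in Tnnt3, a troponin gene. The depth over H19 is not in the data used here, so the list gives no level for it.

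Meg3, Rian and H19 are hosts of miRNAs, short RNAs that repress mRNAs through their seed (bases 2 to 8, in capitals). The sequences are shown because these are the products cut from the hosts, and no peak lay on any of them. RefSeq's GRCm38.p6 table places miR-1906 at chr12:109544588-109544609 and miR-770-5p at chr12:109563710-109563731 in Meg3, miR-370-3p at chr12:109618305-109618326 in Rian, and the pair from H19 at chr7:142577112-142577133 (miR-675-5p) and chr7:142577078-142577099 (miR-675-3p).
miR-1906: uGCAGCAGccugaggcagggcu
miR-770-5p: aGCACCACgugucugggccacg
miR-370-3p: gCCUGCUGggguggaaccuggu
miR-675-5p: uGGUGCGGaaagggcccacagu
miR-675-3p: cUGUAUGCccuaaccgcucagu
The 11 mature miRNAs listed in these hosts have 11 different seeds. The precursor of miR-1906 lay closest to a peak, 471 bp from the first Meg3 peak, and that of miR-770 lay 2476 bp from the second. In Rian the 3 miRNA genes lay at least 42269 bp and the 11 small nucleolar RNA genes at least 3409 bp from its peak. With Mascrna, 0 of the 18 small RNA genes inside the 6 genes overlapped a peak. Most of the 18 lie in Rian, where peaks covered only 0.597% of the span, so few overlaps could arise there. The share over all small RNA genes was not counted.

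Ordered by their strongest peak, Neat1 (11.4) was followed by Kcnq1ot1 (10.7), Malat1 (9.57), Meg3 (8.10) and Rian (5.15). The intervals of neighbours in this order overlap. The interval of Rian, which ends at 7.90, lies below those of Malat1, Kcnq1ot1 and Neat1 while the background is taken as known. The 1 added to pileup and background lowers the ratio most where the background is low. Without it the strongest ratios were 13.4 in Kcnq1ot1, 13.4 in Meg3, 12.6 in Neat1, 9.86 in Malat1 and 6.59 in Rian, so that Meg3 moved up to stand level with Kcnq1ot1. Counting the background's own error as well, with the background read as whole control fragments, the Meg3 ratio had an interval of 5.33 to 37.9 from 18 IP and 7 control fragments, and that of Kcnq1ot1 7.76 to 24.1 from 49 and 19. That of Rian was 3.17 to 13.9 from 19 and 15, which overlaps both, so on this reading Rian and Kcnq1ot1 are no longer separated. Whether a whole multiple of the background step is a count of control fragments was not tested. The top backgrounds of Malat1 and Neat1 could not be read as whole fragments.

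Likeness to other lncRNA genes was measured over 1093 of them with a peak, by the distance in number of peaks, highest fold enrichment and background at that peak, on log2 scales divided by their SD. Malat1 had no close match: its nearest genes were Xist (distance 1.64), Gm15441 and Gm35197. For Neat1 they were Gm37416 (0.438), Gm32670 and Gm14170, whose strongest peak is also that of Norad, and for Kcnq1ot1 2600014E21Rik (0.519), Brip1os and Gm38431. Meg3 lay close to Gm2065 (0.0782), 2310047K21Rik and 2610203C22Rik, and Rian to AW112010 (0.109), Gm51446 and Gm36423. Apart from AW112010, each of these nearest genes has its strongest peak in a span shared with another gene. Their values may therefore belong to that other gene.

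Listed neighbours of the 4 imprinted genes had peaks in part, at shares near or below the 44.9% of protein-coding genes. Of the listed genes Mirg and Nctc1 are lncRNA genes, and neither had a peak. In the Dlk1-Dio3 region 2 of 5 listed genes had one, the retrotransposon-derived gene Rtl1 at 8.13 and the deiodinase gene Dio3 at 6.39 (3.69 to 10.4), and Dlk1 had none. Around Kcnq1 5 of 10 had one, led by Tssc4 at 12.6 (8.81 to 17.6) and the growth-restraining cell cycle inhibitor gene Cdkn1c at 10.8 (6.43 to 17.1). Kcnq1 came next, and it counts only through peaks whose summits also lie in the Kcnq1ot1 span. Beside H19, 0 of 5 listed genes (Igf2, Ins2, Th, Mrpl23 and Nctc1) had one.

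Genes of the proteins that work with these RNAs were counted beside the 44.9% of all protein-coding genes with a peak. Of 12 paraspeckle proteins 11 had a peak, all but Hnrnpa1, with a median highest fold enrichment of 7.50. Sfpq, a core paraspeckle protein gene, reached 17.0 (13.6 to 21.0), Rbm14 13.5 (9.10 to 19.3) in a shared span and Matr3 12.04 (9.81 to 14.6). Of 12 nuclear speckle proteins 9 had one, led by the speckle scaffold gene Son at 19.2 (16.6 to 22.0), Acin1 at 17.6 (14.4 to 21.5) and Srrm2 at 13.5 (9.77 to 18.2). The values of this Srrm2 peak equal those of an lncRNA gene's top peak in a shared span, so it may be a shared one. Of 9 m6A writers and nuclear readers 7 had one, led by the writer adaptor gene Rbm15b at 31.1, the nuclear reader gene Ythdc1 at 23.9 and the writer subunit gene Zc3h13 at 23.5. Expression was not matched in these counts.

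Of a list of other known non-coding RNA genes, 20 have the biotype lncRNA in the table, and 10 of these had a peak, 7 of them in their own span, beside 8.62% and 3.78% of all lncRNA genes. The list was made of well-known genes, with expression not matched. Oip5os1 reached 16.3 (11.5 to 22.3) and Norad 15.7 (13.4 to 18.4), the latter in a shared span. Xist, the RNA that silences an X chromosome, reached 13.3 (11.6 to 15.2) with 220 IP fragments over a background of 15.6, in 8 peaks that all lie in the span of its antisense gene Tsix as well. Airn, chosen after its values were seen, is like Kcnq1ot1 a long imprinted RNA antisense to a protein-coding gene. It had 24 peaks, the most of any lncRNA gene, 20 of them in its span alone, and a highest fold enrichment of 11.5 (8.53 to 15.1), which overlaps that of Kcnq1ot1. Gas5, Snhg1 and Hotair had none.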

How the data were processed

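Per the submitters' processing notes, HISAT2 2.2.1 and MACS3 3.0.0a7 were run with mm10. For their options, for pooling and for the role of the input in peak calling, the answer is "not given in the sources used here". Each row of the deposited narrowPeak list holds, per the authors' peak caller, a fold enrichment (a ratio), −log10 p and −log10 q, a score equal to 10 times −log10 q to within 1, and the summit. The fold enrichment and score are the authors' own values and served only to describe and rank peaks within the list. The deposited p-value and fold enrichment together gave the IP pileup and background at each summit, and 26577 of 26584 pileups came out whole, to within 0.05 of the step to the next. On 2000 simulated peaks made with the same formula the solver returned the true pileup in 100%. Low backgrounds were whole multiples of 0.192 in 61.3% of cases, as were those of 10 of the 16 peaks. These were read as control fragments for 1 added interval, a reading that was not tested.

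Genes, biotypes and spans came from RefSeq's GRCm38.p6 table (49997 genes), which gives no exons, and strands from its promoter table. Peaks carry no strand. Motifs in peaks, in the design if a genome was given, were not analysed here. No test across samples was possible with 1 IP and 1 input. Named genes are the 6 genes, up to 3 per related list with the highest fold enrichment, the 10 highest other lncRNA genes, the 3 nearest per gene and genes sharing a peak. Listed genes named as having no peak, markers of other tissues, genes of high background and genes nearest to a member's span fall outside this rule and were chosen after their values were seen. The members and lists were chosen with earlier results of these data known. Alternatives were a −log10 q of at least 5, a fold enrichment of at least 4, a pileup of at least 10, other overlaps, unshared spans, no pseudocount and medians, and the comparison of peaks of like background was chosen after seeing the data. Software was scipy 1.17.1, pandas 2.3.3, numpy 2.4.6 and matplotlib 3.10.9 under Python 3.11.15.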

Additional observations from a re-analysis of the deposited data

How the results depend on the processing

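Across 112 alternative values of 21 results, 97 stayed within limits and 15 did not. The limit was 1.5 times for counts and densities, and the counting interval for highest fold enrichments. For the median over the 16 peaks it was a rank-based interval, 3.28 to 8.10, which treats peaks of 1 gene as independent. Densities only repeat the peak counts per span, and a count of 0 cannot rise under filters that remove peaks. The tally therefore overstates how many separate values held. With only summits in the span of 1 gene, Kcnq1ot1 had 0 peaks (0 per kb) and the 6 genes 10 in all. Malat1 kept 2 peaks (0.286 per kb) at a fold enrichment of at least 4, and Meg3 kept 1 (0.0325 per kb) at −log10 q of at least 5 or a pileup of at least 10. The median over a gene's peaks, in place of the highest, was 2.80 in Malat1, 7.87 in Neat1 and 5.63 in Kcnq1ot1. Without the pseudocount Meg3 rose to 13.4, also with its background read as control fragments, an alternative chosen after seeing the data. Of all lncRNA genes, 481 had a peak in their span alone and 1098 with shared spans. The Malat1 peaks lost had fold enrichments of 2.41 to 2.80, and the Meg3 peak lost had 6 fragments and a −log10 q of 3.19. Taking peaks by overlap, of any length or of 50% of the peak, in place of the summit gave 16 peaks as well. No paired analysis was possible because there is 1 sample of each kind. Pileups of 6 to 19 fragments in Meg3, Rian and 5 of the Kcnq1ot1 peaks limit what their values can separate.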

Other observations

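Beyond the 3′ end of Malat1, 6 peaks lay within 25000 bp and in the span of no gene of the table. Their pileups were 5 to 22 fragments over backgrounds of at most 0.769, against 25.0 and more under Malat1. The strongest, at chromosome 19, 5779874 to 5780258, had a fold enrichment of 19.6 (12.6 to 29.2), above each of the 16 peaks described. Its background, 0.175, was at the lowest of the list, whereas those of the 16 peaks were at least 0.577. The other 5 had 4.52 to 7.65. Which RNA these 6 peaks belong to was not tested.

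In the 828613 bp from Dlk1 to Dio3 the list holds 9 peaks, with pileups of 4 to 19 fragments and fold enrichments of 4.26 to 8.13. Of the 61 miRNA and 19 small nucleolar RNA genes there, 1, Mir134, overlapped a peak. The share of such genes over the whole list was not counted. Mir134, at chromosome 12, 109734139 to 109734209, lies under a peak at 109734127 to 109734326. That peak had 4 fragments over 0.175, a background at the lowest of the list, and 4.26 (1.78 to 9.57). The mature miR-134-5p, at chr12:109734145-109734166 on the plus strand in RefSeq's GRCm38.p6 table, lies inside that peak and is shown with its seed in capitals.
miR-134-5p: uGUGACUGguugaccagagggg

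The 10 other lncRNA genes with the highest fold enrichment, at −log10 q of at least 5 and in a span of their own, were Gm30821 at 41.8 (32.9 to 52.5), Gm40841, Gm43305, 2700089I24Rik, B230209E15Rik, 4930578N18Rik, Gm52718, Gm14707, C730034F03Rik and 4930440I19Rik at 22.1 (14.6 to 32.3). Their backgrounds were 0.175 to 4.81, all below those of Malat1 and Neat1, and several stood at 0.175, the lowest of the list.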
